A study of Mus musculus with 8 samples.

Results

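Nop56, Nop58, Fbl, Dkc1, Nhp2, Nop10, Gar1, Ncl, Npm1 and Nolc1 encode proteins of the small nucleolar ribonucleoproteins (snoRNPs) and of the nucleolus itself. The 10 genes were taken by exact symbol from a table of 44343 genes, and all 10 had an entry. They were compared between pancreatic beta cells of mice with both copies of Adar floxed, so that Cre can delete them, and beta cells of mice with 1 floxed and 1 intact copy; Adar encodes the adenosine-to-inosine RNA-editing enzyme ADAR1. All mice were 1 month old and carried MipCreER, a tamoxifen-inducible Cre recombinase under an insulin promoter, and the R26R-EYFP reporter, which marks cells in which Cre has acted. The KO group was Adar floxed/floxed (4 libraries) and the Het group Adar floxed/+ (4 libraries), and every mouse received 2 doses of 8 mg tamoxifen. YFP-positive cells were sorted by flow cytometry from dissociated islets 7 days later, and total RNA was sequenced. The Het cells therefore share Cre, the reporter, tamoxifen and 1 floxed allele with the KO cells, and no group without Cre or tamoxifen was analysed here. The number of mice behind a library is not stated, so each p-value measures the spread between libraries, which may in part be technical. These are bulk libraries, in which a gene's level per cell and the share of cells that express it cannot be told apart.

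Small nucleolar RNAs (snoRNAs) guide chemical changes to ribosomal RNA while it is being made and folded in the nucleolus. Box C/D snoRNAs work with NOP56, NOP58 and the methyltransferase fibrillarin (FBL) to direct ribose methylation, and box H/ACA snoRNAs work with the pseudouridine synthase dyskerin (DKC1) and NHP2, NOP10 and GAR1 to direct pseudouridylation. Nucleolin (NCL) binds nascent ribosomal RNA, nucleophosmin (NPM1) is an abundant chaperone of the granular outer zone of the nucleolus, and NOLC1 (Nopp140) accompanies snoRNPs between the nucleolus and Cajal bodies.

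Several of these genes carry snoRNAs in their own introns. In the GENCODE M21 annotation of mm10, 13 snoRNA genes lie within a member on its strand: 5 in Nop56, 4 in Nop58, 3 in Ncl and 1 in Dkc1. Only 5 of the 13 had an entry in the table and only 2 reached a mean of 10 over the 8 libraries. They are Snord11 within Nop58 (chr1:59704790-59704873, plus strand) and Snord82 within Ncl (chr1:86356261-86356330, minus strand), both of the box C/D class that NOP56, NOP58 and FBL bind. Both are shown as their GENCODE transcripts, 5′ to 3′, with box C (TGATGA) and box D (CTGA) in capitals, the elements on which the C/D proteins assemble.
Snord11: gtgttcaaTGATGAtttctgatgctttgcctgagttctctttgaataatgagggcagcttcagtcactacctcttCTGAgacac
Snord82: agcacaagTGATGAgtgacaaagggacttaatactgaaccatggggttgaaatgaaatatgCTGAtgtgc

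The promoters of 3 members whose levels differed in behaviour below, Nop56, Nop58 and Nolc1, are shown as the 100 bases before the earlier of the RefSeq and GENCODE starts (sequence from RefSeq, GRCm38.p6), 5′ to 3′ on the gene's plus strand. Capitals mark a CCAAT box and the motif CCGGAA, a core bound by ETS factors, in either orientation. The windows are chr2:130274312-130274411, chr1:59684871-59684970 and chr19:46075747-46075846.
Nop56: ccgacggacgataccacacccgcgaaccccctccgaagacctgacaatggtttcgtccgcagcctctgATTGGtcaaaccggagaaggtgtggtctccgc
Nop58: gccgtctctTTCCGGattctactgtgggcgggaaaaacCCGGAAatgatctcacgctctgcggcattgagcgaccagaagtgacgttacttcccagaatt
Nolc1: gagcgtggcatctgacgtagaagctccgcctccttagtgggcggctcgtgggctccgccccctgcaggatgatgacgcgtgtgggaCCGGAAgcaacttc

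Promoter windows of 300 bases (250 before and 50 after the RefSeq start) were found for 8 of the 10 members, and not for Fbl and Npm1. Searched on both strands, CCGGAA occurred in 4 of the 8 (Nop58, Nhp2, Gar1 and Nolc1) and in 14.9% of 32851 promoters. CCAAT occurred in 4 of the 8 (Nop56, Dkc1, Nhp2 and Nop10) and in 37.4% of all. The E-box CACGTG, a site that MYC proteins can bind, occurred in 0 of the 8 and in 7.15% of all. The motifs were chosen after the sequences had been seen, and a match or its absence describes these windows only.

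The libraries held 5370765 to 15883473 reads. The deposited values are counts divided by size factors, and they left the libraries at different general levels: across genes averaging 200 or more, the median log2 deviation was between -0.46 and 0.22 in the Het libraries. It was 0.88 for KO 1, 0.96 for KO 2, -0.77 for KO 3 and -0.56 for KO 4. Members are therefore given on the deposited scale and also after rescaling with trimmed-mean (TMM) factors computed over the 6697 genes averaging 200 or more, called the expressed-gene scale below, on which the median log2 difference of those genes is near 0. Over all genes tested, the median log2 difference moved from 0.05 on the deposited scale to -0.16 with TMM factors from all genes and to -0.18 on the expressed-gene scale. On the deposited scale the targeted gene Adar was between 744 and 1187 in Het and at 4030, 2365, 615 and 1343 in KO 1 to 4. It was thus above every Het library in KO 1, KO 2 and KO 4, and below them only in KO 3. A count over the whole gene does not measure the deleted exons, so it does not check the labels. Het 1 held reads of male-specific genes with little Xist, KO 3 and KO 4 held almost no reads of the Y-linked gene Ddx3y, and the other libraries held both. The mitochondrial share of reads was 17.4% for KO 3 and lay between 6.90% and 10.4% for every other library.

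The box C/D core genes Nop56 and Nop58 had higher levels in KO cells on the expressed-gene scale, by about the same amount. Fbl had a smaller log2 difference and was not called. The ratios of Nop56 and Nop58 to Fbl, given below, did not pass their own test. Nop56 (ENSMUSG00000027405, chr2:130274430-130279313), a scaffold of the C/D particle, was at 288, 302, 309 and 306 in Het 1 to 4 and at 597, 425, 501 and 567 in KO 1 to 4. Every KO library was above every Het library, and the 4 Het values lay close together (301 ± 9.35, SD, n = 4, against 522 ± 76.5, SD, n = 4). The log2 difference was 0.78 ± 0.12 (SE) with limma on genes averaging at least 200, at an adjusted p of 0.00604.

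Nop58 (ENSMUSG00000026020, chr1:59684971-59719044), the partner of NOP56 in the particle, was at 656, 560, 652 and 658 in Het and at 1370, 943, 1131 and 1071 in KO on that scale. The groups did not overlap. In the same limma fit the log2 difference was 0.83 ± 0.13 (SE), at an adjusted p of 0.00633. Fbl (ENSMUSG00000046865, chr7:28169710-28179269), the methyltransferase itself, was at 111, 139, 169 and 179 in Het and at 181, 163, 223 and 209 in KO. Its groups overlapped, with KO 2 below Het 3 and Het 4. Fbl was under the mean of 200, and with the same factors applied to all genes its log2 difference was 0.39 at a limma adjusted p of 0.391.

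On the deposited scale the same genes were not called. Nop56 was at 242, 303, 361 and 222 in Het and at 1094, 824, 292 and 383 in KO. Nop58 was at 552, 560, 762 and 477 in Het and at 2512, 1831, 660 and 723 in KO. KO 1 and KO 2 stood above all Het libraries for both genes, and KO 3 lay within the Het range. The log2 differences were 1.02 ± 0.51 (SE) for Nop56 and 1.07 ± 0.56 (SE) for Nop58, with limma adjusted p of 0.722 and 0.752. Fbl differed by 0.63 ± 0.45 (SE) on the log2 scale, at a limma adjusted p of 0.896.

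**Figure D1:**
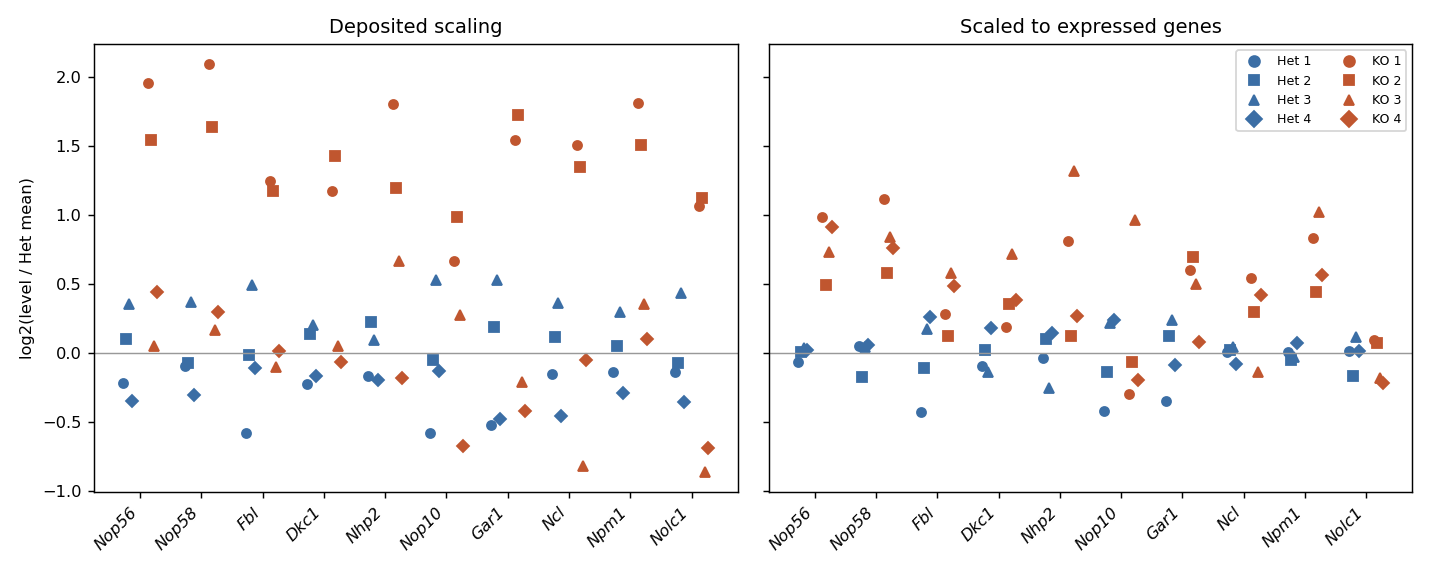
Level of each of the 10 genes relative to its Het mean, as a log2 ratio, in the 4 Het (blue) and 4 KO (orange) libraries on the deposited scale (left) and the expressed-gene scale (right); each point is a library. On the expressed-gene scale Nop56, Nop58, Dkc1 and Npm1 have every KO library above every Het library, and no gene does on the deposited scale.

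The 4 box H/ACA core genes were not called under either scale. Dkc1 (ENSMUSG00000031403, chrX:75095854-75109777), the pseudouridine synthase, was at 119, 129, 115 and 144 in Het and at 144.3, 162, 208 and 166 in KO on the expressed-gene scale. The groups did not overlap, but KO 1 was almost level with Het 4, and the log2 difference of 0.41 ± 0.17 (SE) had a limma adjusted p of 0.276. Nhp2 (ENSMUSG00000001056, chr11:51619735-51623714), an RNA-binding core protein, was at 44.2, 48.7, 38.1 and 50.3 in Het and at 79.7, 49.3, 113 and 54.7 in KO.

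KO 1 and KO 3 were high for Nhp2 and KO 2 lay inside the Het range, so that the groups overlapped, and its log2 difference of 0.63 had a limma adjusted p of 0.446. Gar1 (ENSMUSG00000028010, chr3:129824912-129831396), which attaches to dyskerin late in assembly, was at 57.9, 80.0, 86.5 and 69.3 in Het and at 111, 119, 104 and 77.6 in KO. Only KO 4 fell inside the Het range (log2 difference 0.48, limma adjusted p 0.392). Nop10 (ENSMUSG00000027133, chr2:112261926-112263269), the smallest core protein, was at 85.3, 104, 133 and 135 in Het and at 92.9, 109, 223 and 99.6 in KO, with KO 3 alone above Het. Its log2 difference was 0.13 at a limma adjusted p of 0.878. On the deposited scale the log2 differences were 0.66 for Dkc1, 0.87 for Nhp2, 0.73 for Gar1 and 0.37 for Nop10, with limma adjusted p between 0.628 and 0.948.

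Of the 3 genes of nucleolar proteins, Npm1 was called higher on the expressed-gene scale, and Ncl and Nolc1 were not called; the ratios between them, given below, did not pass their own test. Npm1 (ENSMUSG00000057113, chr11:33152287-33163206) was at 1160, 1116, 1132 and 1215 in Het and at 2062, 1574, 2357 and 1712 in KO on the expressed-gene scale. The groups did not overlap and the Het libraries were close together (1156 ± 43.6, SD, n = 4, against 1926 ± 353, SD, n = 4). The log2 difference was 0.72 ± 0.15 (SE), at a limma adjusted p of 0.0158 on genes averaging at least 200. This call was lost when Het 1, Het 2, Het 3 or KO 1 was left out, whereas those of Nop56 and Nop58 held in all 8 fits that left out 1 library.

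Ncl (ENSMUSG00000026234, chr1:86344719-86359400) was at 4039, 4093, 4152 and 3804 in Het and at 5877, 4955, 3667 and 5394 in KO. Of the KO libraries, 3 stood above all Het libraries and KO 3 stood below them. The log2 difference was 0.29 ± 0.18 (SE), at a limma adjusted p of 0.287. Nolc1 (ENSMUSG00000015176, chr19:46075863-46085530) was at 813, 719, 873 and 814 in Het and at 860, 848, 711 and 692 in KO. The groups overlapped widely, and the log2 difference was -0.05 ± 0.12 (SE) at a limma adjusted p of 0.789.

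On the deposited scale Npm1 was at 976, 1116, 1323 and 881 in Het and at 3779, 3056, 1374 and 1156 in KO, with a log2 difference of 0.96 ± 0.59 (SE). Ncl was at 3399, 4094, 4854 and 2759 in Het and at 10772, 9619, 2139 and 3643 in KO, with a log2 difference of 0.53 ± 0.65 (SE). The corresponding difference for Nolc1 was 0.19 ± 0.55 (SE). KO 3 was the lowest of all 8 libraries for both Ncl and Nolc1, and the limma adjusted p was 0.847, 0.951 and 0.980 in that order.

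Counted over the members, 0 of 10 were called on the deposited scale, where 0.921% of all 21498 genes tested were called higher and 0.0233% lower with limma. At an unadjusted limma p under 0.05, 2 of 10 were higher (Nop56 and Nhp2), against 4.05% of all genes, and edgeR and DESeq2 on the recovered reads also called 0 of 10, against 0.673% and 1.25% of all genes called higher. All 10 log2 differences were above 0 there, with a median of 0.69, beside 54.3% of all genes and a median of 0.05. That background includes genes of low level, whose differences ran lower. With the expressed-gene factors the median was -0.18 over all genes and -0.003 over those averaging 200 or more. The share above 0 among genes of like level was not counted on the deposited scale, so this contrast may be too large. No member had groups that did not overlap, against 2.19% of all genes with every KO library higher. Of the 5 members averaging at least 200, 3 were called higher on the expressed-gene scale (Nop56, Nop58 and Npm1), where 6.03% of the 6697 genes were called higher and 4.24% lower. The other 5 members were under that mean and were not in that fit. With the expressed-gene factors applied to all genes, the same 3 of 10 were called, against 1.14% of all genes called higher and 0.395% lower. Quantile scaling also called these 3, against 1.49% higher and 0.642% lower. Groups did not overlap for 4 of 10 (those 3 and Dkc1), against 5.46% of all genes, and the exact permutation p of each was 0.0286, the smallest that 4 against 4 libraries allow. TMM factors from all genes gave the same 4 of 10 without overlap, against 3.67%, and 0 of 10 called, against 0.637% called higher and 0.0372% lower. With those factors 9 of 10 log2 differences were above 0, all but that of Nolc1, with a median of 0.47, against 36.8% of all genes. This share, too, is over genes of every level. In the subset averaging at least 200, 3 of 5 members did not overlap, against 11.7% of those genes.

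The 4 KO libraries did not contribute equally. Against KO 1 and KO 2 alone, on the deposited scale, all 10 members were called higher, but so were 45.5% of all genes, with 16.1% lower, and the log2 differences were 1.78 for Nop56, 1.89 for Nop58 and 1.68 for Npm1. Against KO 3 and KO 4 alone, 0 of 10 were called, 1.27% of all genes were called higher and 7.45% lower, and the 3 differences were 0.27, 0.25 and 0.25 with limma adjusted p between 0.644 and 0.721. With TMM factors these 3 genes differed by 1.12, 1.23 and 1.02 against KO 1 and KO 2, where 18.8% of all genes were called higher and 28.2% lower, and by 0.49, 0.47 and 0.46 against KO 3 and KO 4, where 1.54% were called higher and 6.52% lower. The limma adjusted p in the latter were between 0.150 and 0.224. KO 3 and KO 4 were also the libraries nearly without Ddx3y reads, and KO 1 and KO 2 those of high general level. Olfactory and vomeronasal receptor genes took a lower share of reads in KO 1 (0.0484%) and KO 2 (0.0342%) than in KO 3 (0.315%) and KO 4 (0.285%), beside 0.0838% to 0.236% in Het. The summed deposited level of leukocyte markers was also lower for KO 1 (135) and KO 2 (118) than for KO 3 (283) and KO 4 (258), beside 200 to 280 in Het. The part of any of these in the result was not tested. In the 5 libraries with reads of both sexes, 9 of 10 members were called higher, against 39.4% of all genes higher and 11.1% lower; both KO libraries left there are KO 1 and KO 2.

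Ratios between members in the same library do not depend on the scaling. Of 12 ratios within the 3 groups of genes, 1 had groups that did not overlap, against 16.7% of all pairs of genes averaging at least 50. The ratio of Npm1 to Nolc1 was 1.43, 1.55, 1.30 and 1.49 in Het and 2.40, 1.86, 3.31 and 2.47 in KO. Every KO library was higher, the log2 difference was 0.77, and the exact permutation p was 0.0286 (0.229 adjusted over the 12). The ratio of Nop56 to Nop58 was nearly even across the libraries, at 0.439, 0.540, 0.474 and 0.465 in Het and 0.436, 0.450, 0.443 and 0.529 in KO (log2 difference -0.05, exact permutation p 0.543). The groups overlapped.

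The ratio of Ncl to Npm1 had a log2 difference of -0.43 (exact permutation p 0.0857), with 1.56 in KO 3 and 2.85 to 3.15 in the other KO libraries. Nop56 to Fbl differed by 0.39 and Nop58 to Fbl by 0.44 (exact permutation p 0.0571 and 0.114). Among the 6 ratios of the H/ACA genes the log2 differences lay between -0.36 and 0.50, and Dkc1 to Gar1 was the nearest to 0 at -0.07. After adjustment over the 12 ratios none was below 0.229.

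**Figure D2:**
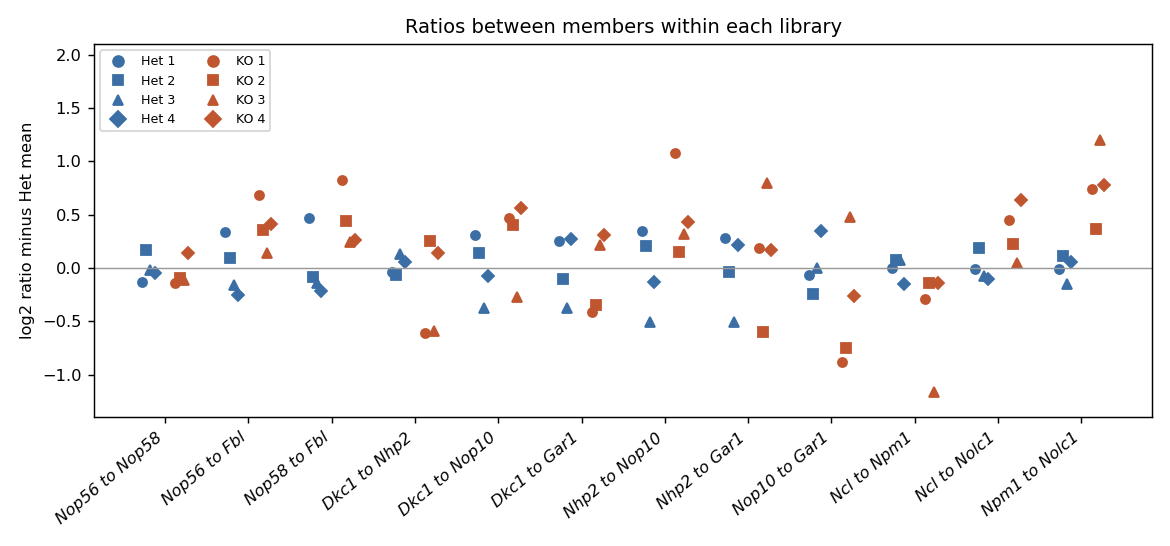
The 12 ratios between members in the 4 Het and 4 KO libraries, each as the log2 ratio minus the mean of the Het libraries; each point is a library. Npm1 to Nolc1 is the ratio with every KO library above every Het library, and Nop56 to Nop58 stays near 0 in both groups.

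Setting each member against every other gene with a mean of at least 200 gives a second view that needs no scaling. The ratio of Nop58 to the other gene was higher in all KO than in all Het libraries for 79.1% of those genes, and the share was 78.3% for Nop56 and 74.6% for Npm1. Over all 6697 genes taken in turn the median of this share was 4.50% and the 90th percentile 31.8%. Dkc1 was above that percentile at 36.5%. Gar1 (26.6%), Ncl (24.7%), Nhp2 (23.5%) and Fbl (14.5%) were between the median and the 90th percentile. Nolc1 was near the median at 6.29%, with 9.07% of its ratios lower in all KO libraries, and Nop10 was below it at 1.15%. Dkc1, Gar1, Nhp2, Fbl and Nop10 average under 200, so they are not among the genes that gave the median and percentile. Their ratios rest on fewer reads, and their places are approximate.

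As a summed share of all reads, the 10 genes were nearly constant in Het cells and higher in each KO library. Ncl and Npm1 made up between 65.2% and 71.5% of these reads in the 8 libraries, so the sum describes mainly those 2 genes. They made up 0.0817%, 0.0829%, 0.0815% and 0.0815% of reads in Het 1 to 4, and 0.146%, 0.108%, 0.0910% and 0.126% in KO 1 to 4. The groups did not overlap: KO 3, the lowest KO library, had a 95% Wilson interval of 0.0884% to 0.0935%, above the 0.0851% upper bound of Het 2, the highest Het library. The intervals cover counting error only. Gene by gene, 9 of 10 had a larger share of reads in KO 1 than in any Het library, and 8 of 10 did in each of KO 2, KO 3 and KO 4. In KO 3 the other 2, Ncl and Nolc1, were below every Het library, and Npm1 made up 25.5% of the member reads there, against 14.8% to 18.1% in the other libraries. The share of all genes above every Het library in this way was not counted, so these counts do not set the members apart. Such a share also moves with the rest of the library: 10 beta cell markers, Ins1 and Ins2 among them, took 3.68% and 4.21% of reads in KO 1 and KO 4, the libraries with the largest member share, and 8.17% to 11.8% in the other 6. KO 3 had the highest mitochondrial share. The part of either in the member share was not tested.

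**Figure D3:**
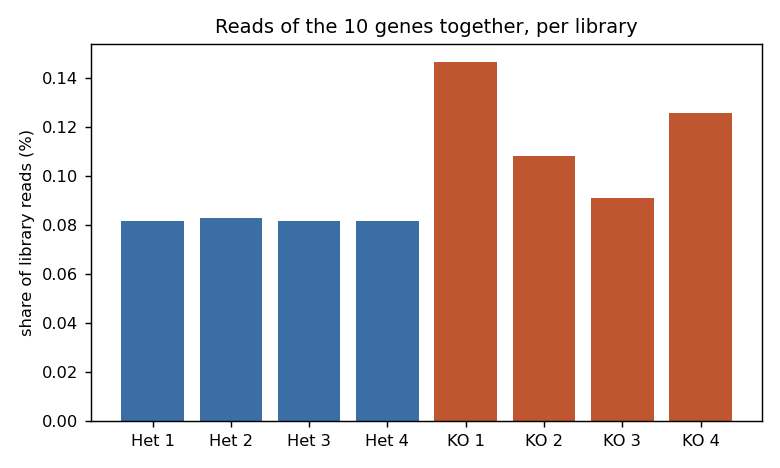
Reads of the 10 genes together as a percentage of all reads, 1 bar a library, with the axis starting at 0. The 4 Het bars are almost level at 0.0815% to 0.0829%, and the KO bars range from 0.0910% in KO 3 to 0.146% in KO 1.

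As RPKM, reads per kilobase of annotated exon scaled to library size, the transcripts of Npm1, Ncl and Nolc1 had the highest levels in Het cells and those of the snoRNP core proteins lower ones. In Het cells the levels were 47.9 ± 2.15 (SD, n = 4) for Npm1, 43.6 ± 1.82 for Ncl and 22.3 ± 1.21 for Nolc1. Nop10 followed at 11.3 ± 2.23, Nop56 at 8.11 ± 0.27 and Nop58 at 6.47 ± 0.40. Gar1 (4.72 ± 0.77), Nhp2 (4.37 ± 0.62), Fbl (3.91 ± 0.76) and Dkc1 (3.40 ± 0.39) were lowest, and no neighbours among these 4 were separated beyond their ranges. Npm1 and Ncl also overlapped, and the other neighbours did not. In KO cells the level of Nop56 was 15.0 ± 3.52, above that of Nop10 at 13.3 ± 4.34 with overlapping ranges, and Npm1 reached 83.8 ± 13.0. The length is that of all annotated exons, 10758 bases for Nop58 and 10188 for Ncl against 4099 for Nop56 and 2665 for Npm1, so long or rarely used exons lower the first 2 values.

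Of the 2 snoRNAs printed above, Snord82 was called higher in KO cells on the deposited scale and Snord11 was not called. Snord82 was at 8.97, 7.50, 31.7 and 16.2 in Het and at 60.1, 72.5, 34.2 and 20.2 in KO on the deposited scale. KO 4 fell inside the Het range. The log2 difference was 1.53 ± 0.42 (SE) at a limma adjusted p of 0.0270, but these values rest on 6 to 67 reads a library, and the call was lost in 25 of 33 other settings, TMM factors (adjusted p 0.390), edgeR (0.602) and DESeq2 (0.229) among them. As a percentage of the level of Ncl, its host, Snord82 was at 0.42 ± 0.23 (SD, n = 4) in Het and 0.87 ± 0.50 (SD, n = 4) in KO (exact permutation p 0.171).

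Snord11 was at 15.4, 17.5, 39.4 and 21.9 in Het and at 65.4, 63.4, 28.7 and 11.3 in KO, with a log2 difference of 0.62 ± 0.41 (SE) at a limma adjusted p of 0.880. Its highest values were in KO 1 and KO 2 and its lowest in KO 4. Relative to Nop58, its host, it was at 3.92% ± 1.15 (SD, n = 4) in Het and 2.99% ± 1.19 (SD, n = 4) in KO (exact permutation p 0.286). Reads on a snoRNA in this kind of library can also come from the unspliced host transcript.

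The wider machinery was read from 6 lists of 196 genes with an entry, without the members. On the deposited scale 193 were tested, 1 was called higher and 0 lower. Of the log2 differences 186 were above 0, beside 54.3% of all genes, with a median of 0.54 against 0.05. As for the members, that background includes genes of low level and is not matched for level. By list, the number above 0 was 16 of 17 for snoRNP assembly factors, 21 of 21 for RNA polymerase I and its factors, 54 of 54 for the small subunit processome, 58 of 58 for large subunit assembly, 30 of 32 for other nucleolar proteins and 7 of 11 for MYC and its partners. On the expressed-gene scale 120 were tested, 28 were called higher and 1 lower, against 6.03% and 4.24% of the 6697 genes. The median was 0.26 against -0.003, and 105 of 120 were above 0, beside 49.7% of the 6697. In the order above, the lists had 4 of 4, 6 of 8, 37 of 39, 40 of 42, 14 of 20 and 4 of 7 above 0. The calls higher were 2 of 4 assembly factors, 2 of 8 polymerase I genes, 11 of 39 of the small subunit processome, 8 of 42 for the large subunit, 4 of 20 other nucleolar genes and 1 of 7 in the MYC list. These 29 calls in either direction depended on single libraries: 3 were made without Het 1 or without Het 2, 6 without Het 3, 11 without Het 4 and 4 without KO 1, but 46 without KO 2. The share of all genes called was not counted in those fits. The mean of 200 is taken over both groups, so a gene can enter this fit through its higher group alone. With the same factors applied to all 193 genes, 11 were called higher and 0 lower, against 1.14% and 0.395% of all genes.

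**Figure D4:**
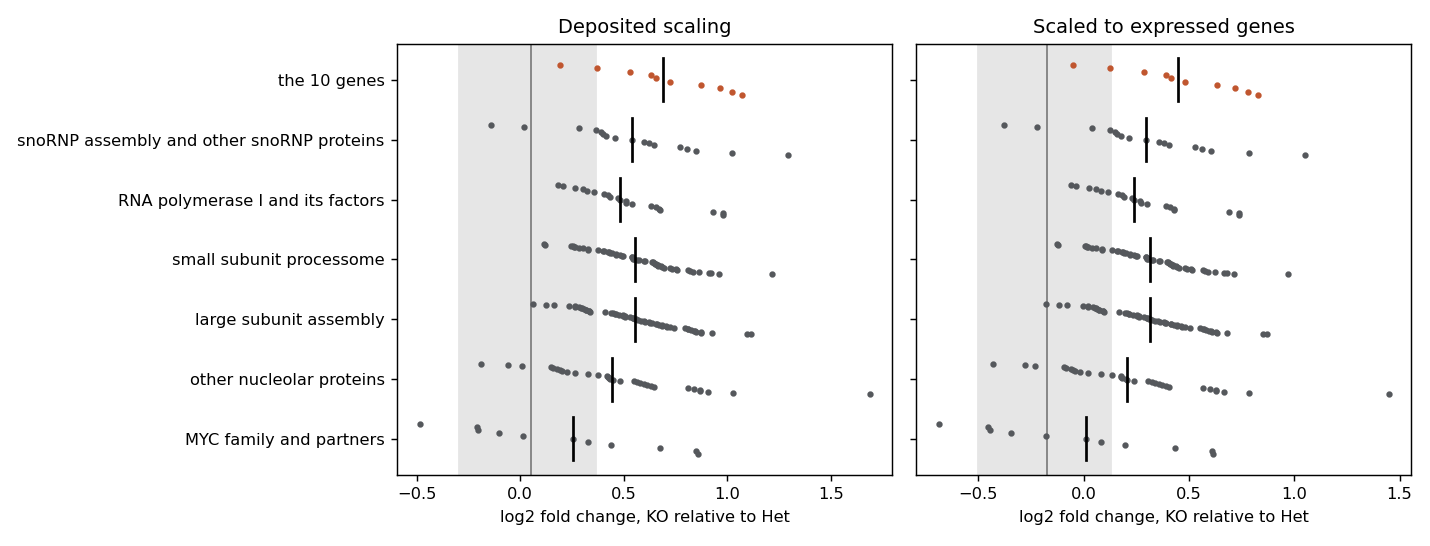
Log2 differences (KO minus Het) of the members (orange) and of the tested genes in 6 lists (grey), each point a gene, on the deposited scale (left) and with the expressed-gene factors applied to all genes (right); black bars are list medians, and the grey line and band are the median and the 25th to 75th percentile of all genes tested. Every list median lies above the line on both scales, and that of the MYC list is the lowest, at 0.25 and 0.01. The line includes genes of low level. Genes averaging 200 or more had a median of -0.003 with the expressed-gene factors, close to that of the MYC list.

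Rpp38, a protein subunit of RNase P and RNase MRP, was the gene called on the deposited scale. It was at 32.0, 46.3, 70.3 and 45.4 in Het and at 292, 163, 126 and 89.9 in KO. Every KO library was above every Het library, with a log2 difference of 1.69 ± 0.41 (SE) at a limma adjusted p of 0.0067, 0.0090 with TMM factors, 0.0117 with edgeR and 0.0066 with DESeq2. On the deposited scale the call was lost without Het 1 (0.232), Het 2 (0.0785), Het 4 (0.0627) or KO 1 (0.130), all limma adjusted p. It was also lost without limma's trend and robust settings (limma adjusted p 0.103) and with TMM factors without KO 1 (limma adjusted p 0.0636). Against KO 3 and KO 4 alone Rpp38 remained called, with a log2 difference of 1.17 at a limma adjusted p of 0.00407.

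Among assembly factors, Znhit6, which helps build C/D particles, was higher by 1.05 ± 0.21 (SE) on the log2 scale at a limma adjusted p of 0.0151, in the fit on genes averaging at least 200. In the same limma fit the polymerase I subunit Twistnb was higher by 0.73 (adjusted p 0.026) and the polymerase I initiation factor Taf1d by 0.74 (adjusted p 0.0197). Ltv1, a late factor of small subunit assembly, was higher by 0.97 ± 0.19 (SE, limma adjusted p 0.0138), and Tma16, a large subunit factor, by 0.87 ± 0.20 (SE, limma adjusted p 0.025). Utp14a, of the small subunit processome, was also called, at 0.72, although its groups overlapped. On the deposited scale Znhit6, Twistnb, Tma16 and Utp14a averaged 108, 152, 129 and 158 in Het and 312, 325, 304 and 340 in KO. They reached the mean of 200 only through their KO values, so the filter itself favoured a higher level for them.

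The genes of smallest p in each list that averaged less than 200 were not in that fit. On the deposited scale Wrap53, which takes H/ACA particles to Cajal bodies, differed by 1.02 on the log2 scale and Nufip1, a scaffold of C/D assembly, by 0.85. The shared polymerase subunit Polr2k differed by 0.93, and the small subunit processome gene Fcf1 by 0.92. Of the large subunit factors Rpf2 differed by 1.09 and Rsl24d1 by 0.84, and of the other nucleolar genes the exosome subunit Exosc2 differed by 1.03 and Wdr74 by 0.84. Mycl differed by 0.85. None of these 9 was called on the deposited scale, with limma adjusted p between 0.343 and 0.790. Exosc2 was called in 7 other settings and not in 27. It was called with quantile scaling (0.0377), with the expressed-gene factors applied to all genes (0.0378), and with TMM factors without KO 3 (0.0474). The replicate block with TMM factors also called it (0.0441), all limma adjusted p. The rest were KO 1 and KO 2 alone under both scalings and the libraries with reads of both sexes, fits that called many genes.

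The MYC list divided. Myc, a transcription factor known to drive many ribosome assembly genes, was at 74.3, 76.3, 66.0 and 44.6 in Het and at 345, 148, 43.0 and 83.9 in KO on the deposited scale, with KO 3 below all Het libraries. Its log2 difference was 0.86 ± 0.41 (SE) at a limma adjusted p of 0.671. Max, the partner of MYC, was called higher by 0.43 in the limma fit on genes averaging at least 200, and Mxd4, which competes for MAX and was named after its value was seen, was called lower at -0.45.

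Across the 8 libraries on the TMM-scaled log2 values, the genes whose pattern was nearest to the mean of the 10 members were Krr1 (Pearson r 0.995), Eif1 (0.995), Paip1 (0.995), Ube2d3 (0.993), Ddx52 (0.992) and Nbn (0.991), out of 6692 ranked. Krr1 and Ddx52 are in the small subunit processome list, Eif1 and Paip1 act in translation initiation, Ube2d3 is a ubiquitin-conjugating enzyme and Nbn takes part in DNA break repair. The r values describe 8 libraries that share their depth and general level. Among the members on the expressed-gene scale, r was 0.97 between Nop56 and Nop58, 0.94 between Nop58 and Npm1, and between -0.51 and 0.17 for Nolc1 with the other 9. The values for Nolc1 depended on the scale. With TMM factors from all genes they lay between 0.19 (Nop10) and 0.83 (Ncl).

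Markers of other cell types did not separate the groups. The summed level of 11 leukocyte markers was 200 to 280 in Het and 118 to 283 in KO, with 0 of them called, and Ptprc averaged 48.3 and 45.1. The sum of 7 markers of dividing cells, which make many ribosomes, was 377 to 597 in Het and 320 to 409 in KO, with Mki67 at 217 and 167 and none called. Acinar markers summed to 66.0 to 106 in Het and 51.1 to 148 in KO. Duct markers summed to 1226 to 2486 and 1243 to 4125, and 1 of 5 was called (Krt19, named after its value was seen). No alpha, delta, endothelial or stellate marker was called, and no marker was at 0 in every library. Ins2, the beta cell marker of highest level, averaged 550213 in Het and 404203 in KO, in accord with the sorted cell type. All sums are on the deposited scale, and their part in the results above was not tested.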

How the data were processed

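Each library was made from total RNA of sorted beta cells with a stranded low-input kit carrying molecular identifiers, per the labels' protocols. Per the submitters' processing notes, the tools were STAR 2.7.3a, DESeq2 1.28.1, FastQC 0.11.8, HTSeq and UMI-tools, and the build mm10. Whether counting used strand is not given in the sources used here, and Nop56, Dkc1 and Nhp2 overlap Idh3b, Mpp1 and Rmnd5b on the opposite strand at their 3′ ends. Reads of Npm1 and other members may also be shared with processed pseudogenes. The authors deposited a signal per gene, the read count divided by a size factor, and 100% of values gave whole reads (tolerance 0.001). Values were analysed as log2(value + 1), so differences of low genes are understated.

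The main test was limma 3.58.1 in R 4.3.3 (trend and robust settings, no block) on 21498 genes with a mean of at least 10, two-sided, Benjamini-Hochberg threshold 0.05. A value called higher or lower passed it. The median degrees of freedom of limma were 128988 on the deposited scale, so that genes of like level shared nearly 1 variance, and 17.3 with TMM factors. Single values used exact permutation over 70 arrangements. Alternatives were TMM and quantile scaling, genes averaging at least 200 with TMM factors, other filters, pseudocounts and limma settings, a block, omitted libraries, and edgeR 4.0.16 and DESeq2 1.42.0 on recovered reads. Applying the factors of genes averaging at least 200 to all genes was added after seeing the data. Gene symbols matched GENCODE M21 for 42980 of 44343 genes. Text names all members, the 3 genes of smallest limma p in each list, hosted snoRNAs with a mean of at least 10, the 6 genes most like the members' mean, the leading marker of each cell type and Adar, with other names given as examples. The members and lists were chosen with earlier results of these data known. The scripts were tested on simulated data.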

Additional observations from a re-analysis of the deposited data

Results flagged for a closer look

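Of 48 sets of 4 libraries examined for a library far from the others of its group, 2 held one, and chance alone gives about 1 in 20. The ratio of Nop56 to Nop58 was 0.529 in KO 4 and between 0.436 and 0.450 in the other KO libraries. The ratio of Nop58 to Fbl was 5.90 in Het 1 and between 3.68 and 4.04 in the other Het libraries.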

How the results depend on the processing

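Of 10 members and 193 pathway genes tested, 0 and 1 were called on the deposited scale. Quantile scaling called 3 and 10 of them, and the factors of genes averaging at least 200, applied to all genes, 3 and 11. The fit on genes averaging at least 200 tested only 5 and 120, and called 3 and 29, the 29 being 28 higher and 1 lower. The shares of all genes called in these fits are given above. KO 1 and KO 2 alone gave 10 and 184, or 9 and 139 with TMM factors, and libraries with reads of both sexes 9 and 180. KO 3 and KO 4 alone gave 0 members and 4 pathway genes, or 8 with TMM factors. Pathway calls were 2 with edgeR and 0 without limma's trend and robust options. Leaving out 1 library gave 0 to 4 members, 0 to 46 pathway genes and 1 to 5 of 12 ratios without overlap, against 1 with all libraries. The 4 and the 5 came without KO 3 and the 46 without KO 2. The 4 were of 5 members and the 46 of 120 pathway genes, in the fit on genes averaging at least 200. The shares of all genes called and of all pairs without overlap were not counted for these fits. The counts therefore do not set the members or lists apart.

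Nop56, Nop58, Fbl, Dkc1, Nhp2 and Npm1 kept a positive difference in every fit run. Those of Fbl and Dkc1 were only 0.0056 and 0.0066 against KO 3 and KO 4 on the deposited scale (limma adjusted p 0.995 and 0.993). Nolc1 turned to -0.030 with TMM factors, -0.052 with quantile scaling, -0.053 with genes of mean at least 200 and with their factors on all genes, -0.081 with array weights, and -0.74 or, with TMM factors, -0.53 against KO 3 and KO 4. Against those 2 libraries Nop10 was -0.14, Gar1 -0.24, Ncl -0.40, Snord11 -0.27, Myc -0.086 and Max -0.064, and with TMM factors Gar1 was -0.028, Ncl -0.19 and Snord11 -0.062. With 1 library left out the log2 difference ran from -0.21 to 0.53 for Nolc1 and -0.0045 to 0.69 for Nop10, and the ratio differences from -0.20 to 0.048 for Dkc1 to Gar1, -0.11 to 0.012 for Nop56 to Nop58 and -0.072 to 0.39 for Nhp2 to Gar1. The cause of these shifts was not tested.

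The labels give no shared animal, litter or batch for a replicate number. Same-numbered libraries deviated together in 3 of 4 pairs, with correlations of 0.22, -0.05, 0.13 and 0.28, and KO 1, KO 3 and KO 4, but not KO 2, correlated best with the Het library of their own number. Since 1 pair did not deviate together, the number was not taken as a pairing. With the replicate number as a block 0 members and 1 pathway gene were called, and with the block and TMM factors 0 and 5, Nolc1 at -0.030, against 1 pathway gene with TMM factors and no block. The members averaging under 200 rest on 29 to 371 reads a library.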
